A study of Homo sapiens with 40 samples.

Results

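IGF2BP3 was disrupted in human RKO cells with an inducible Cas9, and the change in each gene was set against the change in cells whose Cas9 was directed to a control locus. The quantity described is a difference of effects. From the log2 change with doxycycline (Dox) over the solvent DMSO in the IGF2BP3 guide line (sgIGF2BP3), the same change in the control line (sgAAVS1) was subtracted. It rests on 16 of the 40 libraries of the series, 4 in each of 4 groups chosen by their line and treatment. A positive difference means that Dox raised the gene more, or lowered it less, in sgIGF2BP3 cells than in sgAAVS1 cells. Since either line can produce a difference, the line whose own Dox effect passed the test, or neither, is given for each named gene called in the difference.

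RKO is an established colorectal carcinoma line. All groups carried Cas9 and GFP with Cas9 under a Dox-inducible promoter, and each line expressed a pair of guides from a human and a mouse U6 promoter together with eBFP2 from a PGK promoter. Cells were sorted for eBFP2. Whether a line was a pool or a single clone is not given in the sources used here. The Dox groups received 250 ng/mL Dox for 72 hours and the DMSO groups received the solvent, and every group was labelled with the nucleoside s4U (4-thiouridine) at 250 µM for 2 hours before harvest. Each library came from 1 well of a plate of the same line, so the p-values measure the spread between wells. Poly(A) RNA was sequenced, and the deposited counts hold new and old RNA of a gene together. The sgIGF2BP2 line, treated with DMSO or Dox in the same way, and sgIGF2BP3 cells given a small interfering RNA against IGF2BP3 (siIGF2BP3) or a non-targeting one (siControl) share none of the 16 libraries. Their values are given beside those of the 2 lines.

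IGF2BP3 belongs to a family of cytoplasmic RNA-binding proteins with RRM and KH domains that bind many mRNAs, m6A-marked ones included, and affect their stability, translation and location. It is largely fetal in normal tissue and is made again in many carcinomas, those of the colon included. Cutting by Cas9 leaves a double-strand break that is itself a signal: in cells with intact p53, as RKO, it can raise p53 target genes, and breaks can also be followed by loss or rearrangement of the chromosome arm beyond them.

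The guides are shown because the difference compares cutting at their sites. Lower case marks the guide and capitals mark the 3 bases that follow it in the reference, an NGG motif (PAM) in each case where a site was found. The second control guide had no site with up to 3 mismatches among the 206694 transcripts or 35116 promoter windows searched, so it has no capitals.
IGF2BP3 guide 1: tggcaccgactgatagagctGGG
IGF2BP3 guide 2: gaagatactttctaggtccgAGG
AAVS1 guide 1: cgctgtgccccgatgcacacTGG
AAVS1 guide 2: ggcgcgtcgctcgctcgctc
Both IGF2BP3 guides match coding sequence and read antisense to the transcript. The first lies in exon 11 of 15 at chr7:23319200-23319219 and the second in exon 1 at chr7:23470045-23470064 (GRCh38). The first control guide matched the RefSeq promoter window of PPP1R12C, the gene that hosts the AAVS1 locus, at chr19:55117789-55117808 (GRCh38.p14), 171 to 152 bases before the gene's start. Neither control guide had a match with up to 4 mismatches in any SPOP transcript or promoter window searched. Within 4 mismatches the control guides had sites in 14 and 17 genes, and each IGF2BP3 guide in 7. At 1 to 3 mismatches the first control guide matched ACAP1, both IGF2BP3 guides AC092447.1, and the second of these also AL023775.1. Cutting at such sites was not tested. Introns and intergenic sequence were not searched.

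The 16 libraries held between 11133895 and 17183528 counts, and 12618 to 12850 genes had a count. Of 19962 genes listed, 11428 passed the filter on low counts and were tested. The colorectal line's KRT8, KRT18, VIM, CD44 and CDX2 were present in every library, while VIL1 was at 0 in 14 of the 16 and LGR5 in all of them. The 4 fibroblast markers summed to at most 0.688 CPM and the 2 endothelial markers to at most 0.452 CPM, with COL1A2, DCN, LUM, PTPRC and CD3E at 0 in all 16 libraries. The third leukocyte marker, CD68, was at 1.14 to 3.02 CPM. CPM scales a gene's count to the library total. For these markers the total was used as it is, and for all other genes it was adjusted by TMM factors of 0.978 to 1.03.

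The guided target checks the labels. IGF2BP3 (ENSG00000136231, chr7:23310209-23470467) was at 179.6, 181, 175 and 185 CPM with DMSO and 56.1, 58.5, 59.1 and 51.1 CPM with Dox in sgIGF2BP3 cells. The gene was at 179, 158, 167 and 183 CPM with DMSO and 176, 185, 173 and 175 CPM with Dox in sgAAVS1 cells, where the groups overlapped. The difference was −1.73 (SE 0.0607, adjusted p = 8.76e-35) by edgeR's quasi-likelihood test, and sgIGF2BP3 cells drove it, with an own effect of −1.68 against 0.04 in sgAAVS1 cells. Protein and the edited alleles were not measured in these files. The paralog IGF2BP2 did not pass the test, with a difference of −0.05 and an interval of −0.17 to 0.07. IGF2BP1, the other member of the family, had at most 1 count in any of the 16 libraries. Exons of IGF2BP3 share bases with MALSU1 on the opposite strand, and whether the authors' counting used strand is not stated.

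At an adjusted p under 0.05, 889 of 11428 genes were called in the difference, 518 higher (4.53%) and 371 lower (3.25%), in all 7.78% of the genes tested. The changes were small: the median size over called genes was 0.26 on the log2 scale, 40 reached 1.5-fold and 9 reached 2-fold. The control line drove most of them. For 630 of the 889 genes (70.9%) the own Dox effect was called in sgAAVS1 cells only, against 67 (7.54%) in sgIGF2BP3 cells only. In 17 genes both own effects were called in opposite directions, in 9 both were called in one direction, and in 166 neither passed. The own Dox effect was called for 1820 genes in sgAAVS1 cells (15.9%), 828 higher (7.25%) and 992 lower (8.68%). In sgIGF2BP3 cells it was called for 302 (2.64%), 187 higher (1.64%) and 115 lower (1.01%). Before induction the lines were close, with 2 genes called between the DMSO groups (0.0175%), MSN and DUSP6, although 1327 had an unadjusted p under 0.05 by the same edgeR test. Between the Dox groups 1208 were called (10.6%).

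**Figure D1:**
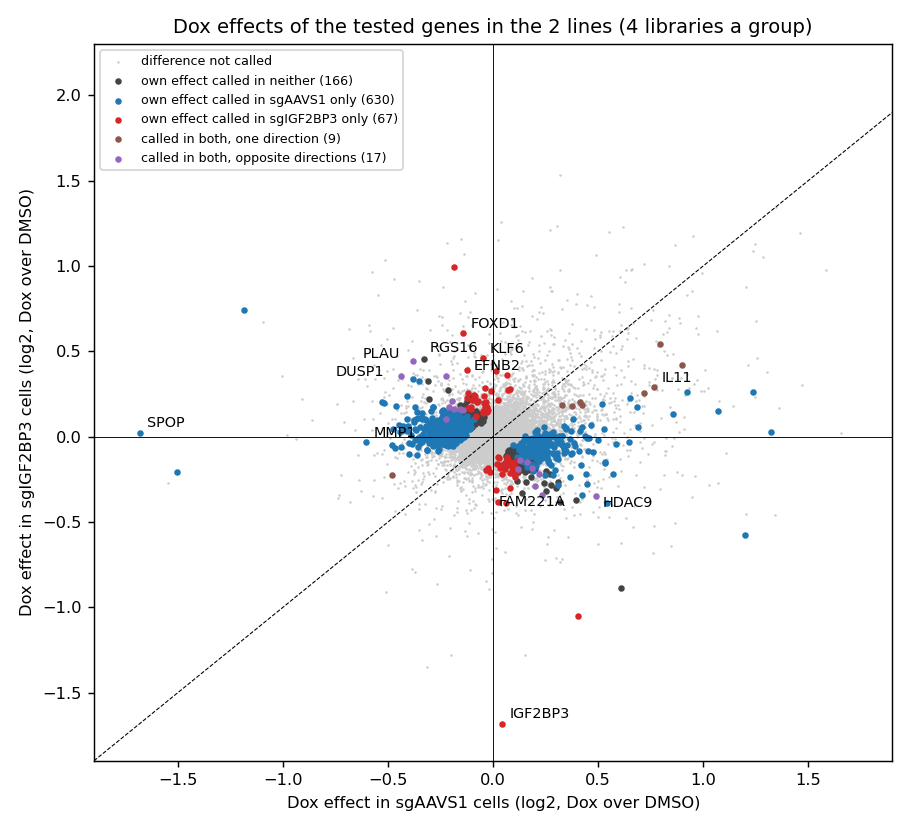
Dox effect of each of 11428 genes in sgAAVS1 cells (x axis) and in sgIGF2BP3 cells (y axis), both as log2 Dox over DMSO from 4 libraries a group, coloured by the line in which the own effect was called. Most called genes spread along the x axis, with SPOP at −1.68 there, while IGF2BP3 lies far down the y axis at −1.68 and FOXD1, KLF6 and EFNB2 lie above the centre.

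Single libraries moved these counts. Without replicate 4 of sgIGF2BP3 Dox, 428 genes were called. Without replicate 2 of sgAAVS1 DMSO there were 540, and without replicate 4 of the same group 1415. Outside the 2 regions set apart, 57 calls were driven by sgIGF2BP3 cells, against 10, 38 and 91 in those fits. They were fewer also without replicate 3 or 4 of sgIGF2BP3 DMSO (27 and 25) and without replicate 2 of sgIGF2BP3 Dox (31). In the first 2 principal components of the 16 libraries (16.2% and 9.77% of the variance), the 4 sgAAVS1 Dox libraries stood at 11.7 to 13.4 on the first and the other 12 at −7.14 to 0.32. Replicate 4 of sgIGF2BP3 Dox stood apart on the second, at −15.3.

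Genes outside the 2 regions numbered 11052, of which 779 were called, 424 higher and 355 lower. Their drivers were sgAAVS1 cells in 541, sgIGF2BP3 cells in 57, both in opposite directions in 11, both in one direction in 9 and neither in 161. Of these 779, 154 were called in the same direction under all of 26 alternative fits: an offset for each library's trend with GC content and transcript length (the GC offset), another normalization, filter or tool, and each library left out, but not the test against 1.2-fold. The 154 held 131 of the 541, 6 of the 57, 9 of the 11, 5 of the 9 and 3 of the 161.

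**Figure D2:**
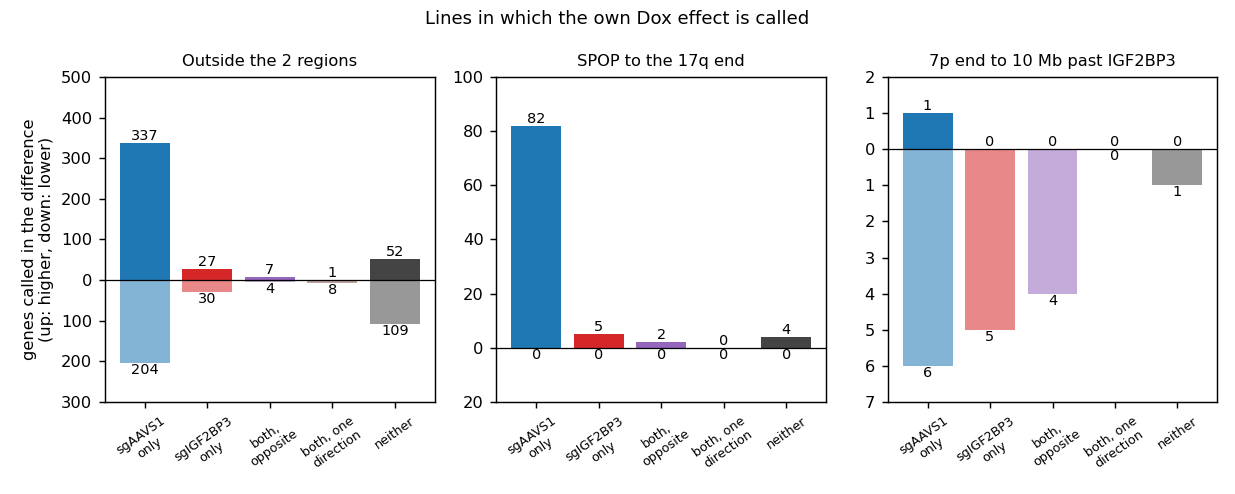
Number of genes called higher (above 0) or lower (below 0) in the difference, by the line in which the own Dox effect was called, outside the 2 regions (left), from SPOP to the 17q end (middle) and around IGF2BP3 on 7p (right). The sgAAVS1 class is the tallest bar in each panel, with 337 higher outside the regions and 82 on 17q.

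Genes driven by sgIGF2BP3 cells come first, since in these Dox changed the IGF2BP3 line and not detectably the control. Outside the regions 27 were higher, with own effects of 0.12 to 0.99 in sgIGF2BP3 cells and −0.19 to 0.08 in sgAAVS1 cells, and 30 were lower. Where the mean log2 CPM was 2 or more, the greatest rises were in FOXD1, a forkhead transcription factor, EFNB2, the membrane ligand ephrin-B2, and KLF6, a zinc-finger transcription factor of the immediate early response.

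FOXD1 (ENSG00000251493, chr5:73444827-73448527) was at 133, 132, 119 and 151 CPM with DMSO and 206, 195, 199 and 215 CPM with Dox in sgIGF2BP3 cells. The control libraries were at 135, 143, 161 and 170.5 CPM with DMSO and 137, 130.3, 137 and 148 CPM with Dox in sgAAVS1 cells. All 4 Dox libraries of sgIGF2BP3 cells lay above every other library of the 2 lines, and the control groups overlapped. The difference was 0.75 (SE 0.10, adjusted p = 3.71e-07), with own effects of 0.61 and −0.14. EFNB2 (ENSG00000125266, chr13:106489731-106535662) was at 31.6, 29.7, 31.6 and 35 CPM with DMSO and 43.4, 43.9, 40.2 and 39.7 CPM with Dox in sgIGF2BP3 cells, without overlap, and at 36.2, 32.7, 34.3 and 35.7 CPM with DMSO and 30.4, 32, 31.9 and 33.1 CPM with Dox in sgAAVS1 cells. Its difference was 0.51 (SE 0.0935, adjusted p = 1.48e-04). KLF6 (ENSG00000067082, chr10:3775996-3785281) was at 17.1, 16.1, 17.6 and 19.1 CPM with DMSO and 24.1, 23.1, 23.4 and 25.3 CPM with Dox in sgIGF2BP3 cells, also without overlap. At 20.1, 21.4, 18.6 and 16.7 CPM with DMSO and 19.7, 18.9, 17.2 and 18 CPM with Dox in sgAAVS1 cells the groups overlapped, and the difference was 0.51 (SE 0.105, adjusted p = 8.58e-04). These 3 kept their calls under all 26 alternatives, as did NRP1, the neuropilin-1 co-receptor, with a difference of 0.37, GATD1 with 0.29, and IDI1, an isomerase of sterol synthesis, with −0.32.

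Dox changed the 3 rising genes in the same direction in sgIGF2BP2 cells, whose libraries are separate. FOXD1 was at 135, 133, 143 and 168 CPM with DMSO and 244, 227, 214 and 257 CPM with Dox in sgIGF2BP2 cells, an own effect of 0.70 (SE 0.0692, adjusted p = 1.37e-12). For EFNB2 the sgIGF2BP2 effect was 0.44 (SE 0.0645, adjusted p = 2.89e-07) and for KLF6 it was 0.42 (SE 0.0716, adjusted p = 6.46e-06). The Dox effects of the IGF2BP3 and IGF2BP2 lines, which share no library with each other, differed by −0.10 for FOXD1 (95% interval −0.29 to 0.10), −0.05 for EFNB2 (−0.23 to 0.13) and 0.04 for KLF6 (−0.16 to 0.24), none of which passed the test, as 2.91% of all genes did. Of the 27 genes that were higher, 16 were called higher in sgIGF2BP2 cells (59.3%, against 10.0% of all genes) and 0 lower. Of the 30 that were lower, 9 were called lower there (30.0%, against 10.4%) and 0 higher. With siIGF2BP3, which changed IGF2BP3 mRNA by −2.78 on the log2 scale, 2 of the 57 were called in the direction of the difference, where 2.34% of all genes were called, 0.936% higher and 1.4% lower. FOXD1 changed there by 0.24 (SE 0.0733, adjusted p = 0.064), EFNB2 by 0.16 and KLF6 by 0.02, none called.

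By the same naming rule, the greatest decreases driven by sgIGF2BP3 cells were in MAGOHB, MZT1 and KIF14. MAGOHB, a core protein of the exon junction complex and a near copy of MAGOH, so that its reads are uncertain, was at 18.5, 20.1, 18.4 and 20.1 CPM with DMSO and 16.4, 14.6, 16.1 and 12.2 CPM with Dox in sgIGF2BP3 cells and at 17, 16.3, 15.5 and 17.7 CPM with DMSO and 15.8, 17.7, 17.5 and 18.5 CPM with Dox in sgAAVS1 cells. MZT1, a small protein of the gamma-tubulin complex, was at 43.3, 42.9, 36.6 and 38 CPM with DMSO and 34.7, 33.4, 34 and 29 CPM with Dox in sgIGF2BP3 cells. KIF14, a kinesin of cytokinesis, was at 42.5, 45.2, 44.7 and 49.1 CPM with DMSO and 39.5, 42.1, 38.5 and 33.9 CPM with Dox in sgIGF2BP3 cells. In sgAAVS1 cells MZT1 was at 38.9, 33, 36.2 and 36.3 CPM with DMSO and 39.4, 42.9, 34.7 and 35.5 CPM with Dox. KIF14 was at 41.8, 37.6, 34.6 and 41.2 CPM with DMSO and 42.8, 43.2, 39 and 41.6 CPM with Dox in sgAAVS1 cells. In each, as the naming rule required, the 4 Dox libraries lay below the 4 DMSO libraries in sgIGF2BP3 cells. The sgAAVS1 groups overlapped. The differences were −0.45 (SE 0.123, adjusted p = 0.0149), −0.38 (SE 0.116, adjusted p = 0.028) and −0.34 (SE 0.0881, adjusted p = 0.00903). For none of the 3 were the Dox groups of the 2 lines called apart. KIF14 differed by 0.22 between the DMSO groups and by −0.12 between the Dox groups, sgIGF2BP3 over sgAAVS1, neither called. With Dox in sgIGF2BP2 cells KIF14 was called lower, at −0.33 (SE 0.0636, adjusted p = 4.91e-05 by edgeR). MAGOHB (−0.20) and MZT1 (−0.17) were not called there. None of these 3 was called with the GC offset, where the differences were −0.31, −0.13 and −0.19. Under that fit 10 of the 57 kept their call, and without replicate 4 of sgIGF2BP3 Dox 25 did. Also in this class were the mitotic genes SKA3 (−0.25) and STAG1 (−0.20), named after their values were seen. Neither kept its call under all 26 alternatives. In the list of 26 mitotic genes, 1 was higher and 0 were lower in the difference (against 4.53% and 3.25% of all genes), with a median of −0.02.

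**Figure D3:**
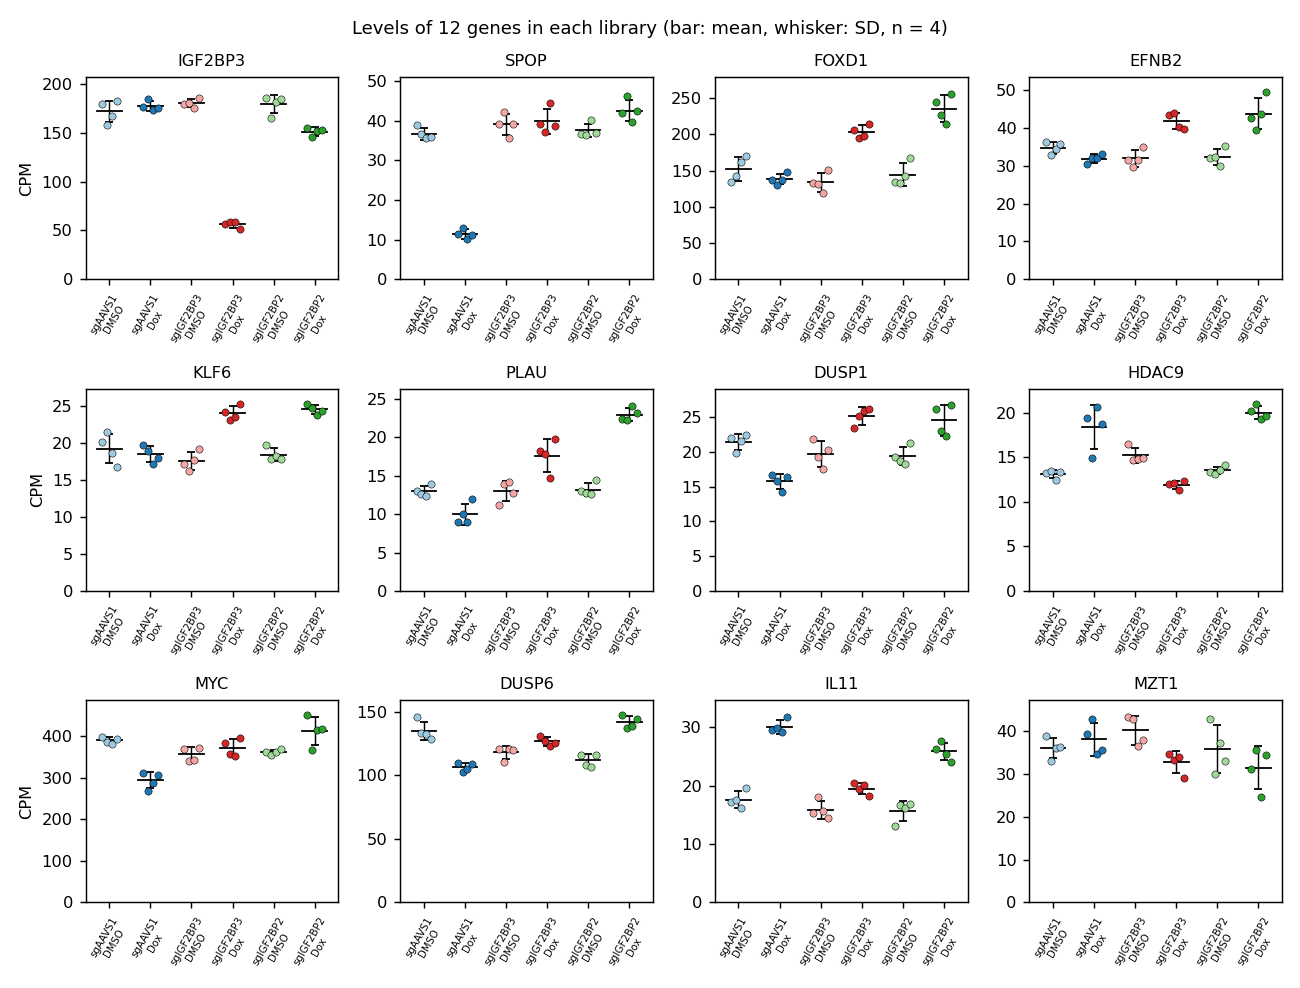
CPM of 12 genes in each library of the sgAAVS1, sgIGF2BP3 and sgIGF2BP2 lines with DMSO or Dox; points are libraries, bars the mean and whiskers the SD (n = 4). FOXD1, EFNB2, KLF6 and PLAU are higher with Dox in both the sgIGF2BP3 and the sgIGF2BP2 lines, while MYC and DUSP6 are lower with Dox in sgAAVS1 cells.

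In 11 genes outside the regions both lines moved, in opposite directions. PLAU, the urokinase that activates plasminogen, and DUSP1, a phosphatase that switches off MAP kinases, rose in sgIGF2BP3 cells and fell in sgAAVS1 cells. PLAU (ENSG00000122861, chr10:73909177-73917497) was at 11.2, 13.9, 14.2 and 12.7 CPM with DMSO and 18.2, 17.8, 14.7 and 19.8 CPM with Dox in sgIGF2BP3 cells. It was at 13, 12.6, 12.4 and 13.9 CPM with DMSO and 8.97, 9.98, 9.03 and 12 CPM with Dox in sgAAVS1 cells, and neither pair of groups overlapped. The own effects were 0.44 and −0.38, and the difference was 0.82 (SE 0.13, adjusted p = 1.28e-05). DUSP1 (ENSG00000120129, chr5:172768090-172771195) was at 21.8, 19.2, 17.5 and 20.3 CPM with DMSO and 23.4, 25.2, 25.9 and 26.1 CPM with Dox in sgIGF2BP3 cells. The gene was at 22, 19.8, 21.5 and 22.4 CPM with DMSO and 16.6, 15.8, 14.2 and 16.4 CPM with Dox in sgAAVS1 cells, again without overlap in either line. Its difference was 0.79 (SE 0.114, adjusted p = 1.42e-06), made of 0.35 and −0.44.

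ERCC2, the XPD helicase of nucleotide excision repair and TFIIH, was at 76.9, 80.7, 81.6 and 80.3 CPM with DMSO and 91.3, 91.3, 92.5 and 93.6 CPM with Dox in sgIGF2BP3 cells. It was at 87.2, 83.8, 89.9 and 79.4 CPM with DMSO and 74.3, 74.2, 72.9 and 74.9 CPM with Dox in sgAAVS1 cells, and neither line's groups overlapped. Its difference was 0.40 (SE 0.0566, adjusted p = 8.46e-07), with similar shares from the lines, 0.21 and −0.20. EMP1, an epithelial membrane protein, moved the other way, with a difference of −0.37 (SE 0.0623, adjusted p = 4.31e-05), own effects of −0.19 and 0.18, and levels of 108, 105, 98.6 and 101 CPM with DMSO and 97.8, 89.5, 91.4 and 84.5 CPM with Dox in sgIGF2BP3 cells. COPS2, a subunit of the COP9 signalosome, had −0.31 (adjusted p = 4.47e-04), and −0.12 with an adjusted p of 0.214 under the GC offset. All 7 genes that were higher in this class were also called higher with Dox in sgIGF2BP2 cells by edgeR (against 10.0% of all genes). PLAU rose there by 0.80 (SE 0.0832, adjusted p = 9.00e-12) and DUSP1 by 0.35 (SE 0.078, adjusted p = 4.87e-04). With siIGF2BP3, PLAU changed by −0.12 and DUSP1 by 0.02, neither called. All 4 genes that were lower in this class had a sgIGF2BP2 effect below 0, none called.

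Another 9 genes moved with Dox in one direction in both lines, each by more in sgAAVS1 cells. The 8 with a negative difference rose in both. IL11, a cytokine of the IL-6 family, lies at chr19:55364389-55370463, between the AAVS1 host gene PPP1R12C and the end of 19q. Whether this position bears on its change was not tested. IL11 was at 15.4, 18, 15.7 and 14.5 CPM with DMSO and 20.4, 19.4, 20.1 and 18.2 CPM with Dox in sgIGF2BP3 cells. It was at 17.1, 17.5, 16.2 and 19.7 CPM with DMSO and 29.6, 29.9, 29.1 and 31.7 CPM with Dox in sgAAVS1 cells, where the rise of 0.77 stood against 0.29 in sgIGF2BP3 cells and gave a difference of −0.48 (SE 0.118, adjusted p = 0.00667). SYNPO, an actin-bundling protein, had 0.42 and 0.90, with a difference of −0.48 (SE 0.134, adjusted p = 0.0156). CALD1, the actin-binding caldesmon, had 0.54 and 0.79, with a difference of −0.25 (SE 0.0769, adjusted p = 0.0328). RAB3IP, an exchange factor for RAB8, fell in both lines and less in sgIGF2BP3 cells: it was at 95.2, 97.3, 90.6 and 105 CPM with DMSO and 84.9, 80.2, 86.8 and 80.1 CPM with Dox in sgIGF2BP3 cells. It was at 87.5, 86.7, 92.7 and 98.6 CPM with DMSO and 63.8, 65.7, 63.4 and 69.3 CPM with Dox in sgAAVS1 cells, and neither line's groups overlapped. Its difference was 0.25 (SE 0.066, adjusted p = 0.00952). For IL11 and SYNPO the sgIGF2BP2 effects were 0.72 and 0.87, and the sgIGF2BP3 effects minus those were −0.43 (SE 0.119, adjusted p = 0.0276) and −0.45 (SE 0.136, adjusted p = 0.0486). CALD1 went the other way, with a sgIGF2BP2 effect of 0.28 and a sgIGF2BP3 effect that exceeded it by 0.27 (SE 0.0768, adjusted p = 0.0375). With siIGF2BP3, IL11 fell by 0.47 on the log2 scale (adjusted p = 0.00231) and SYNPO changed by −0.18, which was not called. CALD1 and RAB3IP were called there by edgeR against the sign of their differences, at 0.31 (adjusted p = 2.87e-05) and −0.19 (adjusted p = 0.00555). These are the directions of their Dox effects in sgIGF2BP3 cells, whereas IL11 rose with Dox in those cells.

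The 541 genes driven by sgAAVS1 cells outside the regions changed in the control and were not called in sgIGF2BP3 cells: the median own effect of the 337 that were higher was −0.19 in sgAAVS1 and 0.04 in sgIGF2BP3 cells. The greatest differences by the naming rule, at a mean log2 CPM of at least 2, were in genes of low level. MMP1, interstitial collagenase, was at 9.02, 11.1, 9.92 and 11.6 CPM with DMSO and 6.95, 7.34, 6.08 and 7.12 CPM with Dox in sgAAVS1 cells, without overlap. It was at 9.15, 7.42, 8.13 and 8.47 CPM with DMSO and 10.1, 8.51, 5.88 and 7.95 CPM with Dox in sgIGF2BP3 cells, where the groups overlapped, and the difference was 0.57 (SE 0.172, adjusted p = 0.0268). TLCD1 had a difference of 0.72 (SE 0.185, adjusted p = 0.00897) and LRRC27 0.64 (SE 0.196, adjusted p = 0.0298). The own effects were 0.33 in sgIGF2BP3 and −0.38 in sgAAVS1 cells for TLCD1, and 0.18 and −0.46 for LRRC27. The sgAAVS1 effect of TLCD1 was called at an adjusted p of 0.04 by edgeR. Among the genes that were lower, PRRG1 had −0.73 (SE 0.154, adjusted p = 0.00128), PPP2R3A, a regulatory subunit of protein phosphatase 2A, −0.69 (SE 0.174, adjusted p = 0.00818), and PLEKHM3 −0.68 (SE 0.16, adjusted p = 0.00411). PRRG1 was at 7.96, 5.96, 6.94 and 7.95 CPM with DMSO and 10.5, 10.4, 8.22 and 10.1 CPM with Dox in sgAAVS1 cells and at 8.58, 9.66, 9.75 and 8.89 CPM with DMSO and 8.88, 6.22, 8.52 and 6.94 CPM with Dox in sgIGF2BP3 cells, and the Dox groups of the 2 lines overlapped.

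In sgIGF2BP2 cells 135 of these 541 genes were called in the direction of the sgAAVS1 effect and 22 (4.07%) against it. Of all genes 20.4% were called there, 10.0% higher and 10.4% lower. With siIGF2BP3, 27 of the 541 were called (4.99%, against 2.34% of all genes), 18 in the direction of the difference and 9 against it.

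In 161 genes outside the regions the difference was called while neither own effect was. Their own effects pointed in opposite directions and each missed the threshold: for RGS16, which speeds the shut-off of G proteins, they were 0.45 and −0.33. It was at 3.95, 3.53, 3.18 and 3.79 CPM with DMSO and 5.45, 4.17, 4.35 and 5.8 CPM with Dox in sgIGF2BP3 cells. It was at 5.0, 4.13, 5.03 and 4.3 CPM with DMSO and 3.64, 3.92, 4.2 and 2.95 CPM with Dox in sgAAVS1 cells, and its difference was 0.78 (SE 0.232, adjusted p = 0.0254). PIGV, a mannosyltransferase of GPI anchor synthesis, had 0.64 (SE 0.17, adjusted p = 0.0117), and DOC2A 0.53 (SE 0.175, adjusted p = 0.0482). The lower ones included EFCAB7 (−0.77), NR1D2, the nuclear receptor REV-ERB beta (−0.70), and BTN3A3, a butyrophilin (−0.60). NR1D2 and DOC2A lost the call in 18 and 19 of 27 alternatives. For this class no line can be named from the tests. The larger own effect lay in sgIGF2BP3 cells for 100 of the 161.

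Genes on chromosome 17 from SPOP to the end of the long arm were set apart. SPOP, the substrate adaptor of a cullin ubiquitin ligase, is a control-line gene here. It was at 38.9, 36.5, 35.7 and 35.8 CPM with DMSO and 11.4, 13, 10.1 and 11.1 CPM with Dox in sgAAVS1 cells. It was at 39.1, 42.2, 35.6 and 39.3 CPM with DMSO and 39, 37.2, 44.5 and 38.5 CPM with Dox in sgIGF2BP3 cells, with overlap, and the difference of 1.71 (SE 0.0993, adjusted p = 2.46e-22) was driven by sgAAVS1 cells, with an own effect of −1.68. Of the 251 tested genes, 93 were called in the difference (37.1%, against 7.78% of all genes), all 93 higher, and sgAAVS1 cells drove 82 of them. In the control line itself 131 were called lower (against 8.68% of all genes), with a median of −0.24. Of the 251, 88.4% were below 0 there (against 48.7% of all genes). The median difference of the region was 0.21, made of −0.18 in sgAAVS1 cells and 0.01 in sgIGF2BP3 cells, while sgIGF2BP2 cells had 0.02. In the 10 Mb before SPOP the median difference was 0.09 and 14 of 141 genes were called (9.93%, against 7.78% of all genes). In bulk RNA, fewer cells with a region and less RNA from it per cell cannot be told apart.

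EME1, which forms an endonuclease with MUS81, and RAC3, a small GTPase near the end of the arm, had the greatest differences after SPOP by the naming rule. RAC3 (ENSG00000169750, chr17:82031624-82034204) was at 107, 112, 110.1 and 97.7 CPM with DMSO and 77.4, 78.6, 81.5 and 75.9 CPM with Dox in sgAAVS1 cells, without overlap. It was at 100.2, 99.4, 100.01 and 94.3 CPM with DMSO and 99.98, 107, 99.5 and 106 CPM with Dox in sgIGF2BP3 cells, with overlap. Its difference was 0.52 (SE 0.0706, adjusted p = 6.45e-07), with own effects of −0.45 and 0.07. EME1 had 0.65 (SE 0.138, adjusted p = 0.00125 by edgeR), and its own effect, like that of RAC3, was called in sgAAVS1 cells only. The own effects of EME1 were −0.41 in sgAAVS1 and 0.24 in sgIGF2BP3 cells, and neither line's groups overlapped. It was also called lower in sgIGF2BP2 cells (−0.34) and higher with siIGF2BP3 (0.40). Bins of 5 Mb from SPOP had median differences of −0.02 to 0.26 and bins before it −0.02 to 0.11. From the AAVS1 host gene PPP1R12C to the end of 19q, 74 genes had a median of −0.03 in sgAAVS1 cells, and PPP1R12C itself was at 136, 137, 149.7 and 134 CPM with DMSO and 129.9, 142, 136 and 136 CPM with Dox in sgAAVS1 cells, with an own effect of −0.03 (SE 0.0446, adjusted p = 0.692).

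**Figure D4:**
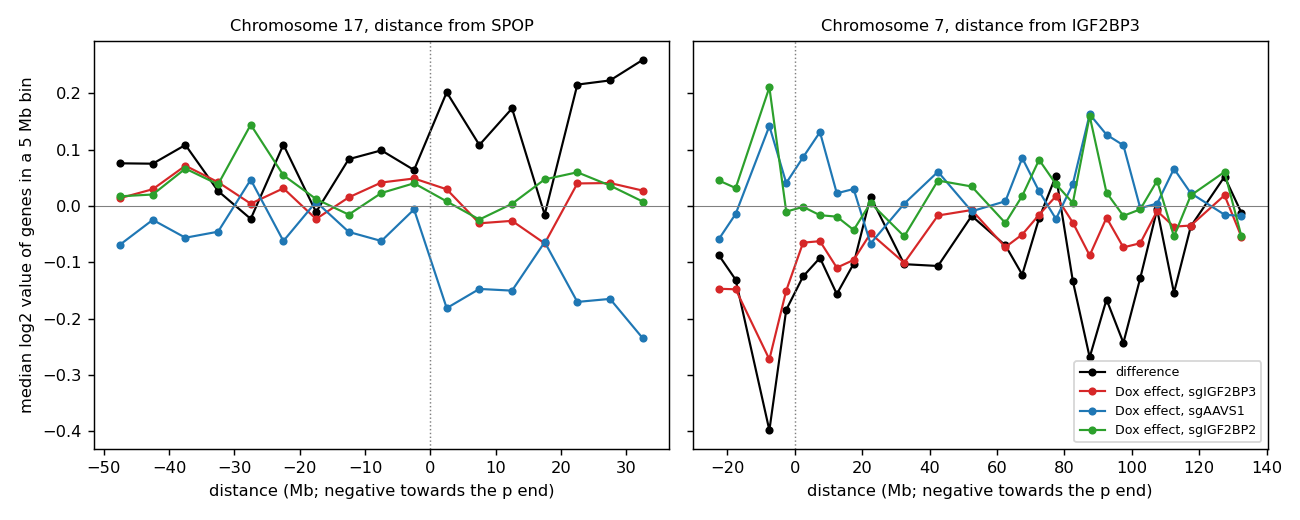
Median log2 difference and Dox effects of the 3 lines for genes in bins of 5 Mb (at least 5 genes) by distance from SPOP on chromosome 17 (left) and from IGF2BP3 on chromosome 7 (right). The sgAAVS1 line drops at SPOP and stays below 0 to the end of 17q, and the sgIGF2BP3 line is lowest, at −0.27, on the telomeric side of IGF2BP3.

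Around IGF2BP3, the genes from the end of 7p to 10 Mb past the target were set apart, 125 in all with the target. Here 17 were called in the difference (13.6%, against 7.78% of all genes), 1 higher and 16 lower (against 4.53% and 3.25%). The medians were −0.13 for the difference, −0.12 for sgIGF2BP3 cells, 0.04 for sgAAVS1 cells and 0.02 for sgIGF2BP2 cells. The 80 genes between the 7p end and IGF2BP3 held 20 called lower in sgIGF2BP3 cells (25.0%, against 1.01% of all genes) and 0 higher, with a median of −0.15. In the 44 genes of the 10 Mb past it, none was called in sgIGF2BP3 cells by edgeR (against 2.64% of all genes), and their median there was −0.06. Of these 44, 4 were called lower in the difference (9.09%, against 3.25% of all genes) and 6 higher in sgAAVS1 cells (13.6%, against 7.25%). Of the 21 genes of the region called lower in sgIGF2BP3 cells, the target among them, 9 were also called in the difference.

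HDAC9, a class IIa histone deacetylase, was called in both lines in opposite directions. It was at 16.5, 14.7, 14.8 and 14.9 CPM with DMSO and 12, 12.1, 11.3 and 12.4 CPM with Dox in sgIGF2BP3 cells. It was at 13.3, 13.5, 12.5 and 13.4 CPM with DMSO and 19.4, 14.9, 20.6 and 18.8 CPM with Dox in sgAAVS1 cells, and neither line's groups overlapped. The difference was −0.84 (SE 0.117, adjusted p = 8.46e-07), with own effects of −0.35 and 0.49, while sgIGF2BP2 cells rose by 0.57, as the control did. The same class held TMEM106B, a lysosomal membrane protein (−0.57), the sorting nexin SNX13 (−0.49) and WIPI2, a protein of autophagosome formation (−0.26). sgIGF2BP3 cells alone drove ANKMY2 (−0.33), NDUFA4 (−0.23), C7orf50 (−0.22) and KDELR2, the receptor that returns proteins to the endoplasmic reticulum (−0.19). These 8 and the target are the 9 called both in sgIGF2BP3 cells and in the difference. FAM221A, past the target, had −0.76 (SE 0.211, adjusted p = 0.0149 by edgeR), and its own effect was called in sgAAVS1 cells only. The own effects were near in size, 0.42 in sgAAVS1 and −0.34 in sgIGF2BP3 cells. It was at 3.33, 5.15, 4.12 and 5.59 CPM with DMSO and 5.6, 6.14, 6.97 and 6.14 CPM with Dox in sgAAVS1 cells. In sgIGF2BP3 cells it was at 6.14, 5.6, 6.64 and 5.03 CPM with DMSO and 4.92, 4.73, 4.35 and 4.44 CPM with Dox, and neither line's groups overlapped. FSCN1, which bundles actin, was the one higher gene, at 0.16, and sgAAVS1 cells drove it. Elsewhere on chromosome 7, 5 Mb bins more than 10 Mb past the target had median differences of −0.27 to 0.05, with sgIGF2BP3 effects of −0.11 to 0.02.

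Gene groups were read from 13 lists by their counts. Among 27 tested p53 targets, 12 rose in sgIGF2BP3 cells (against 1.64% of all genes) and 15 in sgAAVS1 cells (against 7.25%). The difference was called higher for 2 and lower for 1 (against 4.53% and 3.25% of all genes), with a median of 0.00 beside −0.00 for all genes. The exceptions were FDXR, ferredoxin reductase, and DDB2, a sensor of ultraviolet damage, driven by sgIGF2BP3 cells, and ZMAT3, a p53-induced RNA-binding protein, driven by sgAAVS1 cells. FDXR, on 17q, was at 46.9, 47.7, 42.8 and 43.5 CPM with DMSO and 56.1, 59.5, 55.3 and 65.2 CPM with Dox in sgIGF2BP3 cells, without overlap. It was at 50.02, 46.2, 47.6 and 44 CPM with DMSO and 50.3, 47.2, 47 and 44.8 CPM with Dox in sgAAVS1 cells, with overlap. Its difference was 0.37 (SE 0.0807, adjusted p = 0.00192), and it rose in sgIGF2BP2 cells by 0.76. ZMAT3 was at 42.3, 36.1, 35.2 and 44.2 CPM with DMSO and 57.8, 57.8, 52.8 and 57.8 CPM with Dox in sgAAVS1 cells, without overlap. It was at 45.5, 42.5, 41.6 and 44.4 CPM with DMSO and 51.5, 50.01, 53.3 and 44.4 CPM with Dox in sgIGF2BP3 cells, with a difference of −0.33 (SE 0.088, adjusted p = 0.0121).

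Of 15 MAPK feedback genes, 4 were higher in the difference and 0 lower (against 4.53% and 3.25% of all genes), each driven by sgAAVS1 cells: the ERK phosphatases DUSP6 and DUSP5, SPRY4 (0.18) and PHLDA1 (0.20), although the list's median was −0.02. DUSP6 was at 146, 133, 132 and 129 CPM with DMSO and 109.6, 102, 105 and 109 CPM with Dox in sgAAVS1 cells. It was at 121, 111, 121 and 120.1 CPM with DMSO and 131, 127, 123 and 126 CPM with Dox in sgIGF2BP3 cells, and neither line's groups overlapped. Its difference was 0.44 (SE 0.0572, adjusted p = 1.51e-07), and it also differed between the DMSO groups, by −0.19 (SE 0.0396, adjusted p = 0.0445). DUSP5 had 0.36 (SE 0.0832, adjusted p = 0.00356). Both rose with Dox in sgIGF2BP2 cells, by 0.35 and 0.60. Of 22 immediate early genes, 3 were higher and 2 lower (against the same 4.53% and 3.25%), and the lines driving them were mixed: DUSP1 both, KLF6 sgIGF2BP3, MYC and NR4A1 (−0.38) sgAAVS1, and IER3 (−0.49) neither. Of 13 NF-kB feedback and cytokine genes, 2 were called (against 7.78%): LIF was higher, at 0.21 (SE 0.0615, adjusted p = 0.0206), and IL11 lower. LIF was driven by sgAAVS1 cells.

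Of 17 contractile targets of SRF and YAP, 2 were higher and 4 lower (against 4.53% and 3.25% of all genes). CTGF, a secreted YAP target, was at 30.5, 33.1, 32.3 and 32.3 CPM with DMSO and 42.6, 45.5, 43.6 and 39.1 CPM with Dox in sgAAVS1 cells, without overlap. It was at 32.5, 30.4, 30.6 and 29.7 CPM with DMSO and 28.7, 28.7, 30.8 and 28.3 CPM with Dox in sgIGF2BP3 cells, with overlap. Its difference was −0.49 (SE 0.0906, adjusted p = 1.74e-04), driven by sgAAVS1 cells. Cytoplasmic actin ACTG1, on 17q and close in sequence to ACTB, had 0.33 (SE 0.0424, adjusted p = 1.51e-07) with opposite own effects. CALD1 and CYR61 rose in both lines, and FHL2 (0.22) and AMOTL2 (−0.24) were driven by sgAAVS1 cells. Among 9 genes of plasminogen activation and matrix proteases, PLAU, MMP1 and the membrane protease MMP14 were higher (against 4.53% of all genes) and 0 were lower, with a list median of 0.20. MMP14 had 0.23 (SE 0.0585, adjusted p = 0.00907), driven by sgAAVS1 cells, and was itself higher with siIGF2BP3, by 0.32 (SE 0.0423, adjusted p = 8.80e-08). CTGF, whose difference was negative, was called higher with siIGF2BP3, by 0.30 (SE 0.0791, adjusted p = 0.0208), as was CALD1.

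Reported IGF2BP target mRNAs gave 4 higher and 0 lower of 17 tested (against 4.53% and 3.25% of all genes): MYC, HMGA1, TK1 and FSCN1, with a list median of −0.04. In all 4 the control line drove the difference, and their own effects in sgIGF2BP3 cells were 0.06, −0.01, 0.03 and −0.04, none called. MYC, a transcription factor of growth, was at 398, 386, 382 and 394 CPM with DMSO and 311, 269, 289 and 307 CPM with Dox in sgAAVS1 cells, without overlap. It was at 371, 341, 342 and 373 CPM with DMSO and 383, 357, 351 and 396 CPM with Dox in sgIGF2BP3 cells, with overlap, and the difference was 0.47 (SE 0.0595, adjusted p = 1.33e-07). HMGA1, a chromatin architectural protein with known pseudogene copies, was at 4234, 4232, 4282 and 4133 CPM with DMSO and 3325, 3094, 3380.02 and 3381 CPM with Dox in sgAAVS1 cells. It was at 4054, 4086, 4067 and 4128 CPM with DMSO and 3887, 4061, 4069 and 4186 CPM with Dox in sgIGF2BP3 cells, with overlap, and the difference was 0.35 (SE 0.0502, adjusted p = 1.62e-06). Under siIGF2BP3 the effects were 0.04 for MYC and −0.01 for HMGA1, neither called. TK1 and FSCN1 lie in the regions set apart.

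The replication list had a median difference of 0.10. Of 28 genes of the G1/S transition and replication, 15 fell in sgAAVS1 cells (against 8.68% of all genes) and 3 in sgIGF2BP3 cells (against 1.01%). In the difference 4 were called higher (against 4.53%), all driven by sgAAVS1 cells: the helicase subunits MCM2 (0.16), MCM4 (0.13) and MCM5, and thymidine kinase TK1. MCM5 was at 224, 233, 224 and 208 CPM with DMSO and 189, 191, 184 and 188 CPM with Dox in sgAAVS1 cells, without overlap. It was at 211, 215, 219 and 211 CPM with DMSO and 200.3, 209, 216 and 220.2 CPM with Dox in sgIGF2BP3 cells, with overlap and a difference of 0.22 (SE 0.0505, adjusted p = 0.00261). With siIGF2BP3 it was called in the other direction, at −0.24 (SE 0.0361, adjusted p = 1.81e-06). TK1 had 0.32 (SE 0.0605, adjusted p = 2.53e-04). Among 26 mitotic genes, 1 was higher, the inhibitor of apoptosis BIRC5 on 17q, with 0.18 (SE 0.0581, adjusted p = 0.0474), and 0 were lower. BIRC5 was driven by sgAAVS1 cells.

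Sterol and fatty acid synthesis had 2 genes higher and 6 lower of 25, against 4.53% and 3.25% of all genes. FASN, fatty acid synthase on 17q, was at 1016, 1049, 977 and 933 CPM with DMSO and 708, 762, 738 and 714 CPM with Dox in sgAAVS1 cells, without overlap. It was at 996, 980.3, 961 and 944 CPM with DMSO and 959, 965, 960.2 and 1069 CPM with Dox in sgIGF2BP3 cells, with overlap. The difference was 0.47 (SE 0.0524, adjusted p = 1.77e-09), driven by sgAAVS1 cells. MSMO1, a methylsterol oxidase, was at 36.9, 36.2, 32.3 and 38.3 CPM with DMSO and 47, 46.6, 43.6 and 48.8 CPM with Dox in sgAAVS1 cells, without overlap. It was at 39.8, 38.5, 36.9 and 40.9 CPM with DMSO and 40.4, 39.5, 35.5 and 30.6 CPM with Dox in sgIGF2BP3 cells, with overlap. Its difference was −0.47 (SE 0.0897, adjusted p = 2.90e-04), driven by sgAAVS1 cells. SC5D and STARD4 were lower and driven by sgAAVS1 cells (−0.34 and −0.51), IDI1 by sgIGF2BP3 cells, and HMGCS1 (−0.27) and SREBF1 (0.18) by neither. The own effects of STARD4 were −0.23 in sgIGF2BP3 and 0.29 in sgAAVS1 cells. STARD4, a carrier of sterol in the cytosol, also changed with siIGF2BP3, by −0.70 (SE 0.0743, adjusted p = 5.39e-11), where 5 of the 25 were called lower (against 1.4% of all genes) and 0 higher.

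In the stress lists the shares called stand beside 7.78% of all genes. Of 27 genes of the unfolded protein response, 2 were called: the chaperone HYOU1 was higher, by 0.17 (SE 0.0575, adjusted p = 0.0461), and DERL1, which helps export misfolded protein from the endoplasmic reticulum, differed by −0.20 (SE 0.0565, adjusted p = 0.0184). Both were driven by sgAAVS1 cells. None of the 27 was called with Dox in sgIGF2BP3 cells by edgeR, where 2.64% of all genes were. Of 19 genes of the integrated stress response, 1 was higher, the mitochondrial serine enzyme SHMT2, with 0.18 (SE 0.0482, adjusted p = 0.014), driven by sgAAVS1 cells. Of 24 interferon response genes none was called in the difference by edgeR, with 4 raised in sgAAVS1 and 1 in sgIGF2BP3 cells (against 7.25% and 1.64% of all genes).

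The calls followed the GC content of the transcripts. With the genes split by GC into 5 bins of 2279 to 2291, the lowest bin (up to 41.95%) had 5 called higher and 214 lower, and the highest (from 58.77%) 261 higher and 12 lower. Across 11423 genes, which are not independent, Pearson's r of the difference with GC was 0.351, that of the sgIGF2BP3 effect 0.309 and that of the sgAAVS1 effect −0.158. Libraries differed in this slope within groups. Log2 CPM, centred by gene, changed by 0.08 for 10 percentage points of GC in replicate 4 of sgIGF2BP3 Dox and by −0.01 to 0.01 in the other 3 libraries. In sgAAVS1 DMSO it changed by 0.06 in replicate 2 and −0.05 in replicate 4. Removing any of these 3 libraries moved the count of calls by more than 1.5 times. Replicate 4 of sgIGF2BP3 DMSO changed by −0.06, and without it 616 genes were called, a smaller move. With the GC offset 389 genes were called, 284 of them shared with the 889 in the same direction, and the own effect of sgIGF2BP3 cells gave 349 calls. The part of GC content in single genes' differences was not tested beyond that fit.

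Of the 52 named genes called in the difference, 29 kept the call and direction under the 26 alternatives. Under the GC offset 19 lost it, among them FAM221A (−0.67, adjusted p = 0.0569), RGS16 (0.74, adjusted p = 0.0546) and LRRC27 (0.60, adjusted p = 0.076), whose differences stayed near their values without it. FSCN1 came to 0.05, SHMT2 to 0.10, HYOU1 to 0.12, LIF to 0.14, BIRC5 to 0.14, MMP14 to 0.15, DERL1 to −0.15 and CALD1 to −0.19. Leaving out 1 library ended the call of 19, and leaving out replicate 4 of sgIGF2BP3 Dox that of 16. With siIGF2BP3, 8 of the other 51 beside the target were called (15.7%, against 2.34% of all genes). Of these, 4 were in the direction of the difference (IL11, EME1, DUSP6 and MMP14) and 4 against it (RAB3IP, CALD1, CTGF and MCM5). The sign of the difference need not be that of the Dox effect in sgIGF2BP3 cells. RAB3IP and CALD1 moved with siIGF2BP3 as with Dox in sgIGF2BP3 cells, and IL11 moved the other way. By the test against a 1.2-fold change, 7 kept the call: IGF2BP3, SPOP, FOXD1, PLAU, DUSP1, HDAC9 and FASN. Of the 55 genes named by rule or added, 9 overlap an exon of a tested antisense partner, and reads of such pairs cannot be told apart without strand: IGF2BP3, COPS2, DERL1, DOC2A, EFCAB7, EME1, ERCC2, SHMT2 and TLCD1.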

How the data were processed

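Poly(A) RNA of 40 libraries in 10 groups was sequenced after s4U labelling, and 16 libraries in 4 groups of 4 enter the difference. The authors deposited whole-number counts per gene for each library. Reads were converted with bcl2fastq 2.20.0.422 and aligned to hg38 with STAR 2.7.5c, per the submitters' processing notes; the counting tool, its annotation and its use of strand are not given in the sources used here. Names and coordinates come from GENCODE v29 (GRCh38) and promoter windows from RefSeq (GRCh38.p14).

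Counts as deposited were tested in edgeR 4.0.16 (R 4.3.3) with TMM factors, filterByExpr and quasi-likelihood F tests in 1 fit of the 40 libraries with a coefficient for each of 10 groups, so that all groups share an estimate of the spread (biological coefficient of variation 3.79%). P-values were adjusted by Benjamini-Hochberg over 11428 genes and called under 0.05. SE is the log2 change over the square root of F. CPM is TMM-scaled. Intervals are 95%. The 16 libraries hold 11133895 to 17183528 counts. In counts simulated with the totals and spread of the data, 34.3%, 86.6% and 90.9% of genes changed by 1.2, 1.5 and 2-fold were recovered in the difference.

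A driver is the line whose own Dox effect was called, even where the uncalled effect of the other line was near it in size. Set apart were chromosome 17 from the start of SPOP to the end of the long arm and chromosome 7 up to 10 Mb past IGF2BP3. Groups follow the labels. Named were IGF2BP2, IGF2BP3 and SPOP, up to 3 genes per driver class and direction with the largest difference (mean log2 CPM of at least 2, groups not overlapping in a line with a called effect), 2 per direction and region, and up to 2 per list by adjusted p; others were named after their values were seen. The members and lists were chosen with earlier results of these data known. Alternatives were DESeq2 1.42.0, relative log expression factors, TMM without the 2 regions, no filter, a stricter filter, the 16 libraries alone, a GC and length offset, a replicate block, thinning to the smallest total, a test against 1.2-fold and each library left out. A few genes counted in the classes and lists are not reported here by name.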

Additional observations from a re-analysis of the deposited data

Results flagged for a closer look

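The Dox effects of the sgIGF2BP3 and sgAAVS1 lines differed by an edgeR interaction test for 889 genes, and the differences below are log2 values by that test. The guided target IGF2BP3 had −1.73, and SPOP, which was not a target of the guides, had 1.71. For sgIGF2BP3-driven genes they were 0.75 for FOXD1, 0.51 for EFNB2, 0.51 for KLF6, −0.45 for MAGOHB, −0.38 for MZT1 and −0.34 for KIF14. Where both lines moved they were 0.82 for PLAU, 0.79 for DUSP1, 0.40 for ERCC2, −0.37 for EMP1, −0.31 for COPS2, 0.25 for RAB3IP, −0.48 for SYNPO, −0.48 for IL11 and −0.25 for CALD1. In genes with neither own effect called they were 0.78 for RGS16, 0.64 for PIGV, 0.53 for DOC2A, −0.77 for EFCAB7, −0.70 for NR1D2 and −0.60 for BTN3A3. Among sgAAVS1-driven genes they were 0.72 for TLCD1, 0.64 for LRRC27, 0.57 for MMP1, −0.73 for PRRG1, −0.69 for PPP2R3A and −0.68 for PLEKHM3.

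In the 2 regions set apart, EME1 had 0.65, RAC3 0.52, FSCN1 0.16, HDAC9 −0.84 and FAM221A −0.76. The genes named from the lists had 0.37 (FDXR), −0.33 (ZMAT3), 0.47 (MYC), 0.44 (DUSP6), 0.36 (DUSP5), 0.33 (ACTG1), −0.49 (CTGF), 0.23 (MMP14), 0.21 (LIF), 0.35 (HMGA1), −0.20 (DERL1), 0.17 (HYOU1), 0.18 (SHMT2), 0.32 (TK1), 0.22 (MCM5), 0.18 (BIRC5), 0.47 (FASN) and −0.47 (MSMO1).

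By Dixon's test at 95%, 1 library stood apart from the other 3 of its group in 11 of 212 groups of named genes (5.19%), about the 1 in 20 that chance gives. In sgAAVS1 DMSO this was NR1D2 in replicate 2 (2.98 CPM, the lowest). In sgAAVS1 Dox it was replicate 3 as the lowest for PRRG1 (8.22 CPM), ZMAT3 (52.8 CPM) and HYOU1 (96.9 CPM). In sgIGF2BP3 DMSO it was RAC3 in replicate 4 (94.3 CPM, the lowest), HDAC9 in replicate 1 (16.5 CPM, the highest) and DUSP6 in replicate 2 (111 CPM, the lowest). In sgIGF2BP3 Dox the highest were PPP2R3A (6.90 CPM) and CTGF (30.8 CPM) in replicate 3, and SHMT2 (451 CPM) and FASN (1069 CPM) in replicate 4.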

How the results depend on the processing

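No called difference of a gene changed direction under any alternative run that tested it. Changes of sign in the medians of the gene lists were not recorded. The counts moved with the GC and length offset, the test against 1.2-fold and single libraries. Under the offset, the offset with a replicate block and the 1.2-fold test, 389, 442 and 7 genes were called in the difference, and 307, 355 and 3 outside the 2 regions. Of those outside, 19, 26 and 1 were driven by sgIGF2BP3 cells and 245, 277 and 0 by sgAAVS1 cells. The 1.2-fold test (edgeR's glmTreat) called 8 genes in the sgIGF2BP3 effect and 50 in the sgAAVS1 effect. The 17q median was 0.174 with the offset and 0.175 with the offset and block. Leaving out 1 library gave 428 to 1415 calls in the difference, 338 to 1279 outside the regions, 108 to 338 in sgIGF2BP3 cells and 1293 to 2002 in sgAAVS1 cells. It gave 10 to 91 calls driven by sgIGF2BP3 cells and 286 to 872 driven by sgAAVS1 cells, both outside the regions, −1.76 to −1.68 for IGF2BP3, 0.20 to 0.22 for the 17q median and −0.14 to −0.12 for the 7p median. Own calls of sgIGF2BP3 cells were 108 without its Dox replicate 4, 172 without Dox replicate 2, 162 without DMSO replicate 3 and 151 without DMSO replicate 4. Apart from the GC offset and single libraries, the cause of these moves was not tested.

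The difference had 977 calls with DESeq2, 1062 from the 16 libraries alone, 700 after thinning, 921 without the filter, 937 with the stricter one, 881 with relative log expression factors and 884 with TMM factors computed without the regions. Replicate numbers did not pair the libraries: same-numbered libraries of different groups correlated at −0.15 to 0.10 in 24 pairs, and 15 of 48 correlated best with their own number. With a replicate block 986 genes were called, 888 of them among the 889. At the totals and spread of these libraries, 34.3% of simulated 1.2-fold changes were found in the difference. Depth was not varied in the simulation.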

Other observations

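Outside the comparisons of effects, MSN, which links actin to the membrane, differed between the DMSO groups of the lines. It was at 9.36 ± 1.28 CPM in sgAAVS1 and 4.05 ± 0.346 CPM in sgIGF2BP3 cells with DMSO (SD, n = 4), a log2 difference of −1.20 (SE 0.157, adjusted p = 1.38e-06) by edgeR. With Dox it was at 7.62 ± 1.12 and 3.79 ± 0.53 CPM, and its difference of Dox effects of 0.19 was not called. The gene was chosen after its values were seen.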
